A study of Homo sapiens with 28 samples.

Results

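The proteasome genes described here are those whose symbol begins with PSM followed by a letter from A to G and a number, with the interferon-inducible catalytic subunits PSMB8, PSMB9 and PSMB10 left out and a mean of at least 1 CPM (counts scaled to the size of the library) over 28 libraries of LNCaP cells. The names of 49 genes matched, 46 remained after the exclusions, and 44 of these passed the limit, of 61815 genes in the table and 14910 that reached 1 CPM. The lowest gene inside the limit was the assembly chaperone PSMG4 with 9.92 CPM, and outside it were the thymus-type catalytic subunit PSMB11 with 0.0176 CPM and the testis-type alpha subunit PSMA8 with 0 CPM. PSMC3IP is in the set by its name alone: it encodes a partner of the recombinases of DNA repair and meiosis, not a proteasome subunit, and is kept apart from the other 43.

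The 26S proteasome is the ATP-driven protease that degrades ubiquitinated proteins in the cytosol and nucleus. Its 20S core is a barrel of outer alpha rings, which gate the entrance, and inner beta rings, which carry the peptidase sites, and its 19S cap has a base with a ring of ATPases that unfold substrates and a lid that holds the enzyme that removes ubiquitin chains. Dedicated chaperones assemble the particles, other activators (PSME1 to PSME4) can replace the 19S cap, and in many cells the subunit genes are transcribed together under NFE2L1, a membrane-tethered transcription factor released by the deglycosylase NGLY1 and the protease DDI2.

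RNA was sequenced from LNCaP cells, a single androgen-responsive human prostate carcinoma line, in 2 experiments. Before treatment, cells of every group spent 72 h in serum stripped with charcoal to remove steroids. In the first experiment cells received vehicle (0.1% DMSO), 0.1 nM R1881 (a synthetic androgen), 1 µM Senexin B (the dose is that of the labels, and the text of the study gives another), which inhibits CDK8 and CDK19, the kinases of the Mediator kinase module, or R1881 with Senexin B for 24 h, with 3 libraries per group. In the second they received vehicle, 1 nM R1881, 500 nM SNX631 (another CDK8/CDK19 inhibitor) or both for 72 h, with 4 libraries per group. Time, androgen dose, inhibitor and experiment change together, so their parts in any difference between the experiments cannot be told apart. Within an experiment the comparisons share libraries: each vehicle group serves as control for both R1881 and the inhibitor.

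Library totals ran from 9846595 to 33809419 counts, the highest being vehicle library 3 of the 24 h experiment and the next highest 15248512. The biological coefficient of variation fitted by edgeR was 2.72% in the 24 h experiment and 2.38% in the 72 h experiment, so small differences could pass the test. The luminal prostate markers HOXB13, FOLH1, KRT8, KRT18 and EPCAM were all at 161.6 CPM or more in every library. Of 7 markers of other cell types, 6 (PTPRC, CD3E, PECAM1, DCN, KRT5 and KRT14) stayed under 1 CPM in every library, with a summed level of 0.0399 to 0.416 CPM per group and CD3E at 0. The other, the collagen gene COL1A1, had group means from 8.19 to 29.5 CPM and was lower with R1881 (log2 fold changes of -0.67 at 24 h and -0.47 at 72 h) and with each inhibitor (-1.05 and -0.62), and its part in the results was not tested. The androgen response gene KLK3 changed by 6.15 ± 0.141 and 6.57 ± 0.181 (log2 fold change ± SE) with R1881.

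Sequence upstream of the start site is shown for 4 genes on which the results turn: PSMA6 and PSMD8, the core and lid subunits that rose most with androgen, PSMB4, which was lower at 24 h, and PSME1, which was lower with androgen or with SNX631. The bases are from RefSeq (GRCh38), 5′ to 3′ on the strand of the gene, and hold no base of a GENCODE 29 exon. PSMA6 has 2 RefSeq windows, and the first is shown, which lies inside the span that GENCODE gives the gene. Capitals mark a CCAAT box (CCAAT on either strand, here ATTGG in PSMD8) or the core of an antioxidant response element (TGACNNNGC on either strand, in PSME1), the element bound by NFE2L1 and NFE2L2 with small MAF proteins.
PSMA6 (chr14:35292067-35292316, plus strand): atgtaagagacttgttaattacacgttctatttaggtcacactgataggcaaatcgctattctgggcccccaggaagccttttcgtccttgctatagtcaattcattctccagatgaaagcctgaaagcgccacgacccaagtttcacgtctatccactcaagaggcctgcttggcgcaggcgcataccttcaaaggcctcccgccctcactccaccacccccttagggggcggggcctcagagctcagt
PSMD8 (chr19:38374321-38374535, plus strand): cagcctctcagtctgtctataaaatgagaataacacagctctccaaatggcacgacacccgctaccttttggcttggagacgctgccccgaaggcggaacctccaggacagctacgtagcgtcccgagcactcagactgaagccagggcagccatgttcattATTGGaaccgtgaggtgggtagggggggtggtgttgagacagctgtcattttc
PSMB4 (chr1:151399323-151399533, plus strand): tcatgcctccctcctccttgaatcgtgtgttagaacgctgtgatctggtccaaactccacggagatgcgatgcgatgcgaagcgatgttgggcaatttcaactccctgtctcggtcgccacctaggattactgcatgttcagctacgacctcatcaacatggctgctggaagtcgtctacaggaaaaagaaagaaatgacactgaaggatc
PSME1 (chr14:24135944-24136157, plus strand): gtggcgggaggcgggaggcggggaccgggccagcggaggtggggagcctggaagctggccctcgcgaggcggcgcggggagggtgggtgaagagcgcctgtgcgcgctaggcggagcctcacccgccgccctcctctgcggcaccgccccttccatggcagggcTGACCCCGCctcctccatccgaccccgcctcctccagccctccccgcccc

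RefSeq windows of 250 bases before the start were at hand for 38 of the 44 members (PSMD4, PSMG3, PSMB6, PSMB1, PSMA7 and PSMB7 had none), and a gene with several start sites was counted once if any of its windows held a motif. The antioxidant response element core was found in 12 of the 38 members (31.6%) and in 13.2% of all 27305 genes with a window. The 12 were PSMA4, PSMB3, PSMC5, PSMD3, PSMD5, PSMD9, PSMD12, PSME1, PSME2, PSME4, PSMG1 and PSMG2. A CCAAT box was found in 18 of the 38 (47.4%) and in 37.0% of all genes. The E-box CACGTG was found in 3 (7.89%, against 7.73% of all genes), and the steroid receptor half-site TGTTCT in 5 (13.2%, against 14.8%), which were PSMD1, PSMD2, PSMD9, PSMD12 and PSMF1. Both strands were searched, no motif contains another, and the matches are descriptions of the windows. No binding was measured.

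The members were abundant. Their means over the 28 libraries ran from 9.92 CPM to 406.6 CPM (PSMD2, a scaffold of the base) with a median of 107 CPM, and together they took 0.491% to 0.560% of the counts of a library. Scaled to length (CPM per kb of summed exons), the catalytic subunits PSMB5 (chymotrypsin-like site), PSMB7 (trypsin-like site) and PSMB6 (caspase-like site) had levels of 88.1, 61.6 and 47.8 CPM per kb. On the same scale PSMB4, a structural beta subunit, was highest with 116 CPM per kb, the ATPases ran from 11.3 to 51.4 and the assembly chaperones from 0.952 to 38.0. Of the immunoproteasome subunits that were left out, PSMB10 averaged 8.74 CPM, PSMB9 0.164 CPM and PSMB8 0.0856 CPM.

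Androgen raised most of the proteasome genes by small amounts. At 24 h, 27 of 44 members were higher and 4 lower in R1881 than in vehicle at a false discovery rate (FDR, edgeR quasi-likelihood test with Benjamini-Hochberg adjustment over all genes tested) under 0.01, where 26.2% of all 15963 genes tested were higher and 22.1% lower. The median log2 fold change was 0.18 over the members and -0.016 over all genes tested. At 72 h, 31 members were higher and 2 lower, where 27.6% and 24.6% of 16084 genes were, with medians of 0.20 and -0.014. Among the 10442 genes at least as abundant as PSMG4, the share higher was 34.0% at 24 h and 36.1% at 72 h. With a limit of 1.5-fold added, 4 members passed at 24 h (19% of all genes passed in either direction) and 3 at 72 h (19.8%), all of them higher.

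The level summed over the 43 members without PSMC3IP ran from 4990 to 5125 CPM over the vehicle libraries at 24 h and from 5552 to 5792 CPM with R1881. At 72 h it ran from 4764 to 4838 CPM with vehicle and from 5465 to 5611 CPM with R1881. The groups did not overlap in either experiment. These values rest on trimmed-mean scaling, which sets the bulk of the genes near no change. With library totals only, which moved the median of all genes to -0.093 at 24 h and -0.115 at 72 h, the members higher and lower became 18 and 6 at 24 h (20.9% and 29.7% of all genes) and 22 and 5 at 72 h (19.9% and 35.3%), and the median over the members became 0.11 and 0.10. In bulk RNA, fewer cells of a type and less RNA per cell cannot be told apart.

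**Figure D1:**
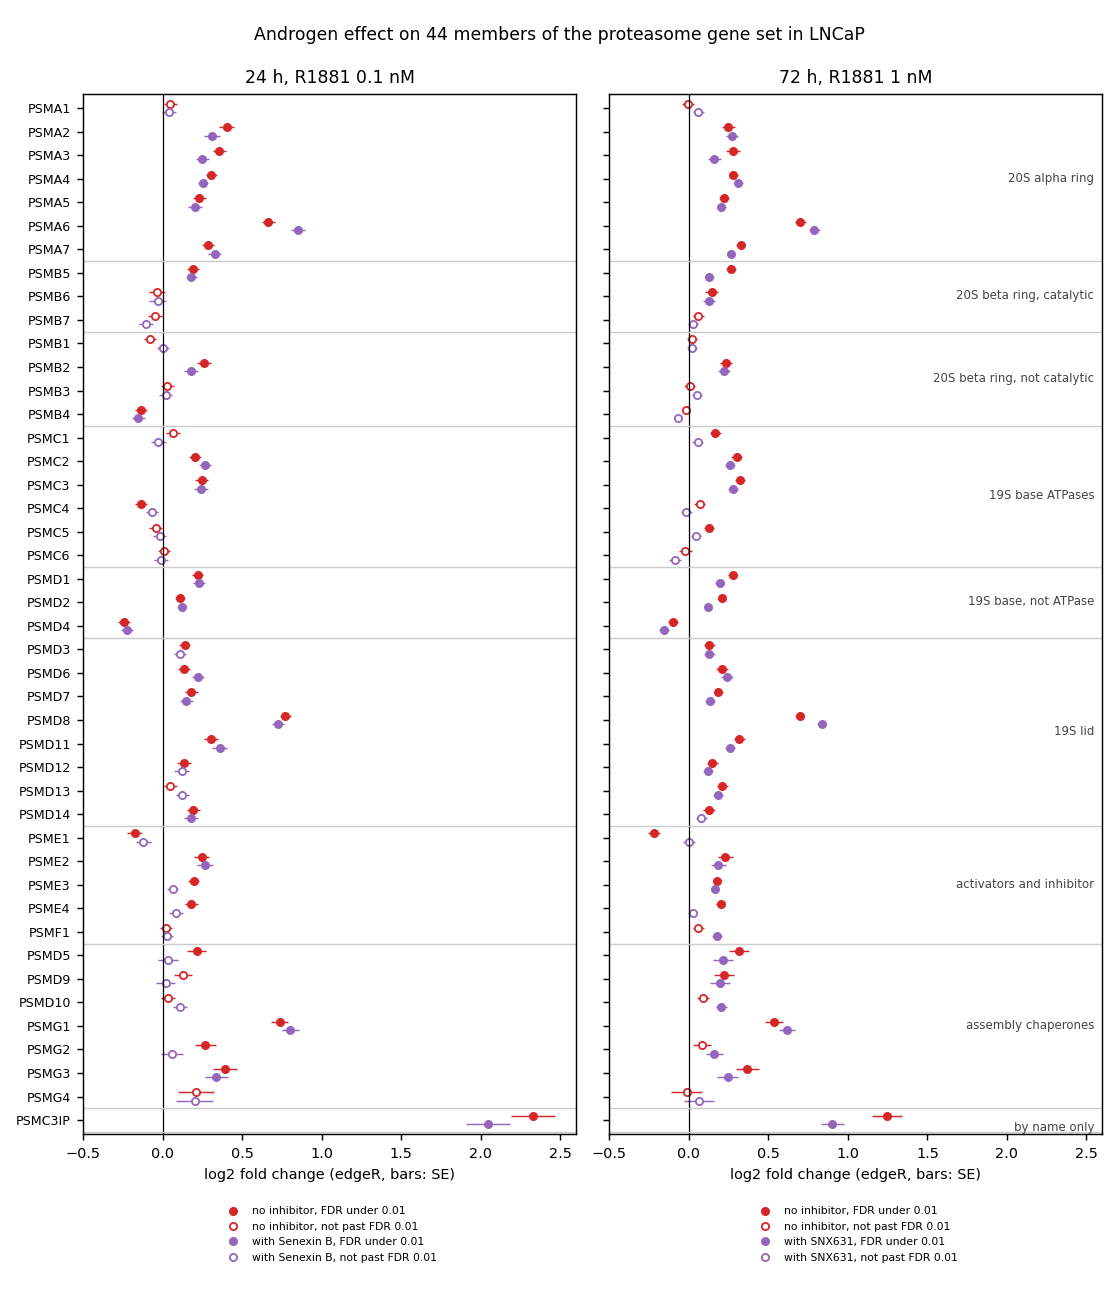
Androgen effect on each of the 44 members. Points are log2 fold changes (R1881 against no R1881) with bars of 1 SE, from 24 h on the left and 72 h on the right, without inhibitor in red and with inhibitor in purple, and filled points have FDR under 0.01. Genes are grouped by role: PSMA6, PSMD8 and PSMG1 stand right of the other subunits in both panels, PSMD4 lies left of 0 in all 4 comparisons, and PSMC3IP has the highest value.

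In the alpha ring, which gates the core, 6 of 7 subunits rose at both times (PSMA2 to PSMA7, with 0.40 for PSMA2 and 0.23 for PSMA5 on the log2 scale at 24 h). Of all genes, 26.2% rose at 24 h and 27.6% at 72 h. PSMA1 did not pass, with 0.05 ± 0.042, FDR = 0.351 at 24 h and -0.01 ± 0.035, FDR = 0.897 at 72 h. With library totals only, the alpha ring still had 6 higher at 24 h (20.9% of all genes) and 6 higher and 1 lower at 72 h (19.9% and 35.3%). Its summed level was 818 ± 16.5 CPM (mean ± SD, n = 3) in vehicle and 1027 ± 36.1 CPM in R1881 at 24 h, and 789 ± 10.2 CPM (n = 4) and 976 ± 21 CPM at 72 h.

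In the lid 7 of 8 subunits rose at 24 h, all but PSMD13 (0.05 ± 0.041, FDR = 0.346), and 8 of 8 at 72 h. The shares of all genes that rose were 26.2% and 27.6%. With library totals only, fewer members were higher at both times. Counts under that scaling are given by role for the alpha ring and the ATPases, not for the lid. The lid's deubiquitinase PSMD14 was at 71.4, 70.5 and 69.1 CPM in vehicle and 81.3, 81.3 and 79.2 CPM in R1881 at 24 h. The groups were apart, and PSMD14 rose by 0.19 ± 0.042, FDR = 0.000228 there and by 0.13 ± 0.037, FDR = 0.00383 at 72 h.

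PSMA6 and PSMD8 rose furthest among the subunits of the core and cap. PSMA6 (alpha ring, chr14:35278633-35317493 on GRCh38) was at 75.7, 83.2 and 76.2 CPM in vehicle and 121, 129 and 124 CPM in R1881 at 24 h. At 72 h it was at 72.8, 75.4, 74.5 and 73.4 CPM in vehicle and 127, 117, 119 and 122 CPM in R1881. Every R1881 library was above every vehicle library, with fold changes of 1.58 (FDR = 2.26e-15) and 1.62 (FDR = 4.46e-20). Such separation upward held for 29 members at 24 h and 33 at 72 h, and for 32.5% and 29.6% of all genes tested. Separation downward held for 3 members at 24 h and 1 at 72 h (29.3% and 25.2% of all genes). AL121594.1 overlaps exons of PSMA6 on the same strand, so reads there could belong to either gene.

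PSMD8, a lid subunit (chr19:38374536-38383824), was at 163, 169.9 and 164 CPM in vehicle and 282, 299 and 273 CPM in R1881 at 24 h. At 72 h it was at 142, 141, 142 and 138 CPM in vehicle and 228, 234, 227 and 229 CPM in R1881. The groups were again apart, with fold changes of 1.71 (FDR = 2.22e-18) and 1.62 (FDR = 1.66e-22), and no annotated gene overlaps exons of PSMD8.

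**Figure D2:**
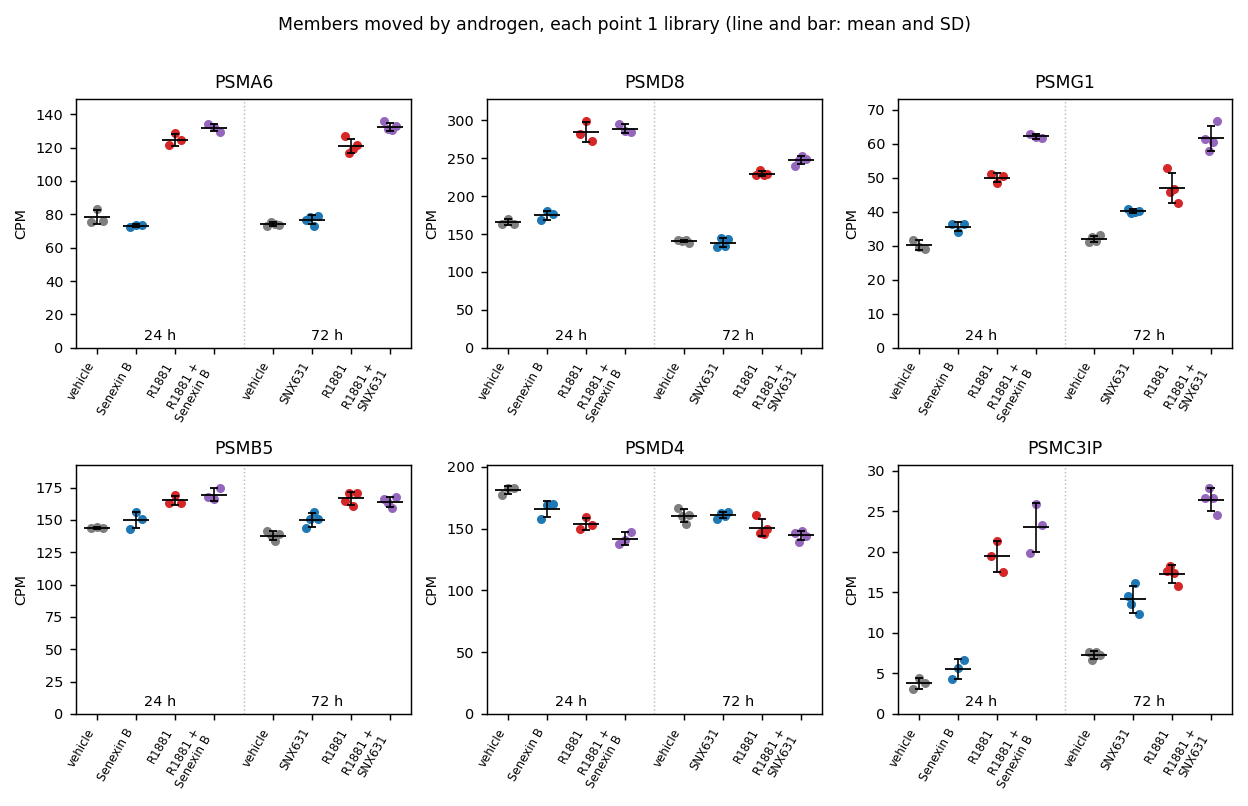
Level of 6 members in every library, in CPM on a linear axis from 0, by group. Each point is 1 library, and the black line and bar give the mean and SD: PSMA6, PSMD8, PSMG1 and PSMC3IP are higher with R1881 in both experiments, PSMB5 moves by a smaller amount, and PSMD4 is lower with R1881.

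The genes of the 3 peptidase sites had different values. PSMB5, the chymotrypsin-like subunit and the main target of bortezomib, was at 143, 144 and 144 CPM in vehicle and 163, 169 and 163 CPM in R1881 at 24 h. No R1881 library overlapped a vehicle library, and the log2 fold change was 0.19 ± 0.036, FDR = 4.64e-05 at 24 h and 0.27 ± 0.031, FDR = 1.62e-09 at 72 h. PSMB6, the caspase-like subunit, did not pass at 24 h (-0.04 ± 0.051, FDR = 0.565, interval of 2 SE from -0.14 to 0.07) and rose by 0.14 ± 0.039, FDR = 0.00166 at 72 h. PSMB7, the trypsin-like subunit, passed at neither time, with -0.05 ± 0.044, FDR = 0.368 (from -0.13 to 0.04) and 0.06 ± 0.034, FDR = 0.13 (from -0.01 to 0.13). Of the 4 structural beta subunits PSMB2 rose at both times (0.26 and 0.23), PSMB4 was lower at 24 h (-0.14 ± 0.040, FDR = 0.00389), and PSMB1 and PSMB3 passed at neither. The PSMB4 groups overlapped at 24 h, with 284 to 297 CPM in vehicle and 250 to 288 CPM in R1881. Differences between subunits were not tested.

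In the base, the ATPases PSMC2 and PSMC3 rose at both times, with log2 fold changes of 0.20 and 0.24 at 24 h and of 0.30 and 0.32 at 72 h. PSMC1 and PSMC5 passed at 72 h (0.17 and 0.13) and had 0.06 and -0.04 at 24 h. PSMC6 passed at neither time. PSMC4 was lower at 24 h (-0.14 ± 0.037, FDR = 0.00232, a call lost without R1881 library 2 or vehicle library 2 or 3) and did not pass at 72 h (0.07 ± 0.032, FDR = 0.0724). The scaffolds PSMD1 and PSMD2 rose in both experiments. At 24 h the ATPases had 2 of 6 higher and 1 lower, near the shares of all genes (26.2% and 22.1%). With library totals only, they had 2 higher and 2 lower at 24 h (20.9% and 29.7% of all genes). At 72 h they then had 2 higher and 1 lower (19.9% and 35.3%).

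PSMD4, the ubiquitin receptor of the base (chr1:151254703-151267479), went the other way. It was at 177, 183 and 183 CPM in vehicle and 149.8, 159 and 153 CPM in R1881 at 24 h, with no overlap and a log2 fold change of -0.25 ± 0.037, FDR = 9.86e-07. At 72 h it was at 166, 160.1, 154 and 161 CPM in vehicle and 161, 146, 146 and 149.6 CPM in R1881, and the groups overlapped. The change there was -0.10 ± 0.032, FDR = 0.00542, and it no longer passed when R1881 library 2, 3 or 4 or vehicle library 1 or 4 was left out, which left 1 member lower in place of 2. PSMD4 was also lower alongside the inhibitors, with -0.22 alongside Senexin B and -0.16 alongside SNX631.

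Of the 7 assembly chaperones 4 rose at each time, where 26.2% of all genes rose at 24 h and 27.6% at 72 h. Only PSMD5, PSMG1 and PSMG3 rose at both times. The other at 72 h was PSMD9, so PSMG2 did not pass there. PSMG1, which with PSMG2 builds the alpha ring (chr21:39174769-39183851), was at 31.8, 29.6 and 29 CPM in vehicle and 50.9, 48.6 and 50.5 CPM in R1881 at 24 h. At 72 h it was at 31.1, 32.5, 31.3 and 33.1 CPM in vehicle and 52.9, 45.8, 46.5 and 42.6 CPM in R1881. The groups were apart at both times, with fold changes of 1.66 (FDR = 1.37e-13) and 1.45 (FDR = 1.16e-10). PSMG3, of the other chaperone pair of the alpha ring, rose by 0.39 ± 0.074 and 0.37 ± 0.072 on the log2 scale. Its partner PSMG4, the lowest member, did not pass (0.21 ± 0.114, FDR = 0.114, and -0.01 ± 0.099, FDR = 0.909). POMP, the chaperone that matures the core and has no PSM name, had 0.00 ± 0.044 and 0.02 ± 0.035.

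Among the alternative caps, PSME1 and PSME2 form 1 ring together (the PA28 activator) and lie near each other at chr14:24136158-24138967 and chr14:24143362-24147570. PSME2 rose by 0.24 ± 0.047, FDR = 4.97e-05 at 24 h and 0.23 ± 0.048, FDR = 9.23e-05 at 72 h. PSME1 was lower, with -0.18 ± 0.046, FDR = 0.00148 and -0.22 ± 0.037, FDR = 2.82e-06. At 24 h its groups overlapped, at 121 to 134 CPM in vehicle and 112 to 122 CPM in R1881. At 72 h its libraries were at 103, 102, 101 and 97.7 CPM in vehicle and 90.9, 88.9, 87.1 and 82 CPM in R1881, with no overlap. The 24 h calls of PSME1 and PSMB4 were lost without vehicle library 2 or 3, where that of PSMC4 was lost too and 1 member lower was left in place of 4, or without R1881 library 1 or 3, which left 2. Exons of both PSME genes overlap a gene on the opposite strand (EMC9 and RNF31), and the strand setting of the counting is not given in the sources used here. The nuclear activators PSME3 and PSME4 rose at both times, by 0.19 and 0.18 at 24 h and 0.18 and 0.20 at 72 h. The inhibitor of the core, PSMF1, passed only alongside SNX631 (0.18) among the androgen comparisons.

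PSMC3IP had the highest change of the 44. It was at 3.11, 4.48 and 3.79 CPM in vehicle and 19.5, 21.3 and 17.5 CPM in R1881 at 24 h. At 72 h it was at 7.63, 6.61, 7.59 and 7.21 CPM in vehicle and 17.6, 18.3, 17.4 and 15.7 CPM in R1881. The groups did not overlap, with fold changes of 5.03 (FDR = 1.69e-16) and 2.37 (FDR = 7.94e-15). Its exons overlap those of MLX on the opposite strand.

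**Figure D3:**
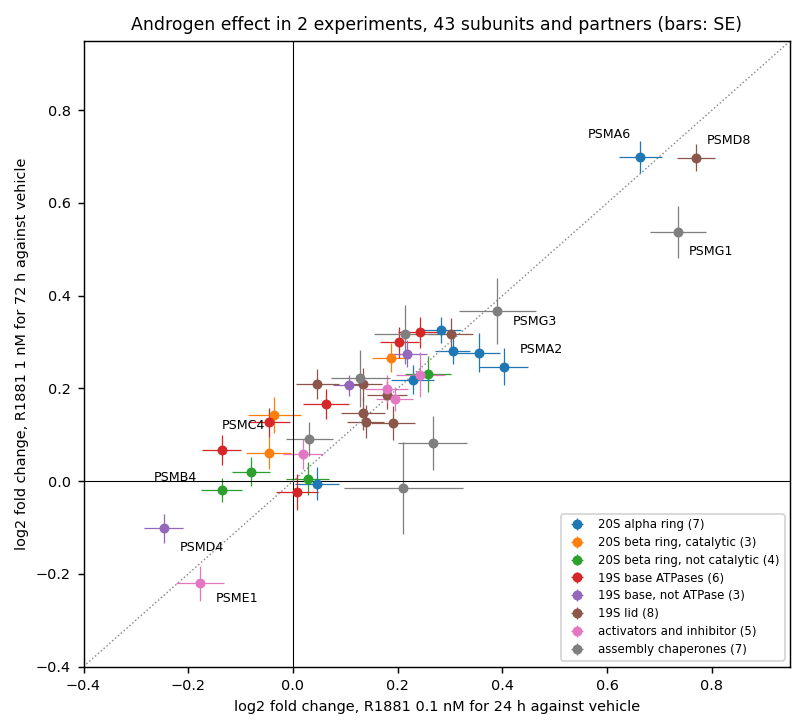
Log2 fold change with R1881 at 24 h (horizontal) against that at 72 h (vertical) for the 43 members without PSMC3IP, with bars of 1 SE, colours for roles and a dotted line of equality. PSMD8, PSMA6 and PSMG1 lie at the upper right and PSMD4 and PSME1 at the lower left, and Pearson's r over the 43 genes was 0.89.

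The 2 experiments share no library, and over the 43 members their androgen effects had a Pearson correlation of 0.89, given as a description across genes, which are not independent replicates. Of the members higher at 24 h, 26 of 27 (96.3%) were also higher at 72 h, which is 83.9% of the 31, where over all genes tested in both experiments 83.9% of those higher at 24 h and 79.3% of those higher at 72 h were shared. The 6 that passed in no androgen comparison were PSMA1, PSMB1, PSMB3, PSMB7, PSMC6 and PSMG4. A direct test of the difference between the experiments (all 28 libraries, 16685 genes) passed for PSMC4, whose androgen effect was higher at 72 h by 0.20 ± 0.047, FDR = 0.00228, and for PSMC3IP, with -1.09 ± 0.169, FDR = 3.89e-06. That is 1 member higher and 1 lower, against 3.4% and 4.12% of all genes.

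The androgen effect was also measured alongside each inhibitor. With Senexin B in both arms, 21 members were higher and 2 lower with R1881 (26.2% and 21.3% of all genes), 4 of them past 1.5-fold (18.9% of all genes), and the median log2 fold change was 0.12. With SNX631 in both arms, 30 were higher and 1 lower (29.8% and 27.4%), 4 of them past 1.5-fold (22%), and the median was 0.16. With library totals only these counts became 16 and 5 with Senexin B (21.1% and 28.3% of all genes) and 14 and 6 with SNX631 (21.9% and 37.7%). The fold changes were 1.80 and 1.73 for PSMA6, 1.65 and 1.78 for PSMD8, 1.74 and 1.54 for PSMG1, and 4.13 and 1.87 for PSMC3IP.

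Whether an inhibitor changed the androgen effect was tested as an interaction. At 24 h no member passed (0 higher and 0 lower at FDR under 0.01 by edgeR, 4 members at an unadjusted p under 0.05, and 0 by DESeq2), where 1.08% and 1.01% of all genes did. At 72 h, 1 member passed in each direction, with 9 at an unadjusted p under 0.05, where 3% and 4.09% of all genes passed. These were PSME1 with 0.22 ± 0.052, FDR = 0.0029 and PSME4, the nuclear activator PA200, with -0.17 ± 0.041, FDR = 0.00269. PSME4 was at 176, 168, 175 and 179 CPM in vehicle, 201, 199, 197 and 209 CPM in R1881, 218, 203, 203 and 214 CPM in SNX631 and 212, 218, 214 and 207 CPM in both. Either agent alone gave levels above all vehicle libraries, and the libraries of the combination lay within the range of those of SNX631. PSME1 was lower with either agent, at 82 to 90.9 CPM in R1881, 83.8 to 92.6 CPM in SNX631 and 85.2 to 89.8 CPM in both, against 97.7 to 103 CPM in vehicle. Without R1881 library 4 neither interaction passed, which left 0 higher and 0 lower, and without vehicle library 2 that of PSME4 did not. Without SNX631 library 2 there were 2 higher, PSMD8 being added. The shares of all genes for both interactions are at FDR under 0.01. None is given at an unadjusted p under 0.05, so the 4 and 9 members have nothing to be read against.

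**Figure D4:**
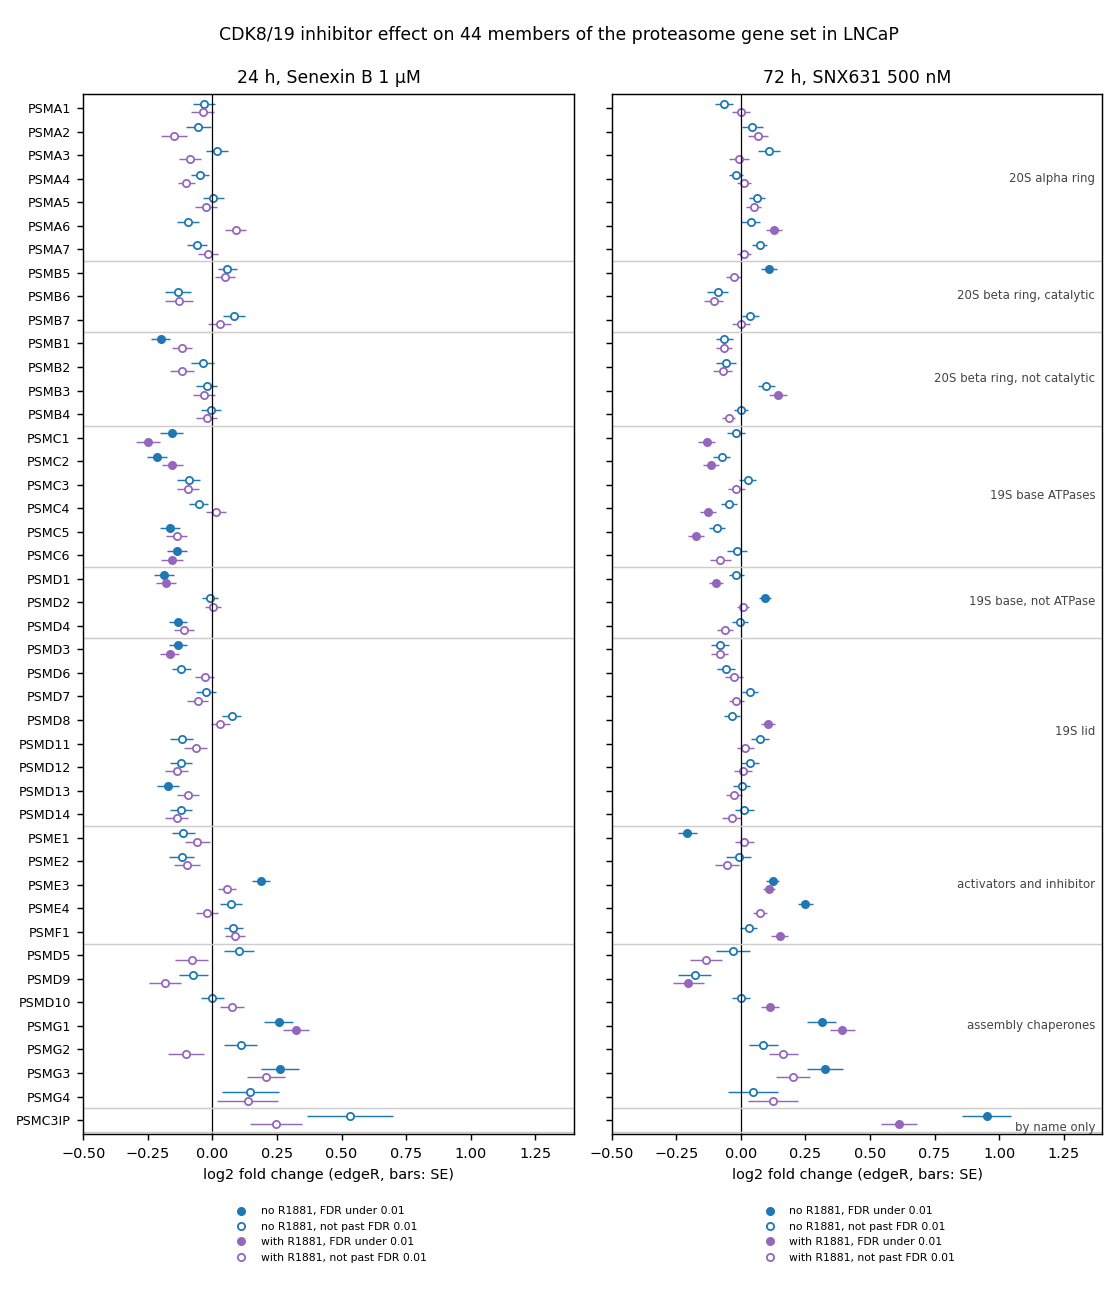
Inhibitor effect on each of the 44 members. Points are log2 fold changes (inhibitor against none) with bars of 1 SE, for Senexin B at 24 h on the left and SNX631 at 72 h on the right, without R1881 in blue and with R1881 in purple, and filled points have FDR under 0.01. The ATPases lie mostly left of 0, PSMG1 lies right of 0 in all 4 comparisons, and PSMC3IP has the highest value with SNX631.

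Fewer members passed with the inhibitors. Senexin B without androgen gave 3 members higher and 9 lower (13.4% and 11.7% of all genes), with 0 past 1.5-fold (3.76% of all genes) and a median log2 fold change of -0.05. Among the genes at least as abundant as PSMG4, 18.5% were higher and 14.97% lower. The 9 lower were the ATPases PSMC1, PSMC2, PSMC5 and PSMC6, the base subunits PSMD1 and PSMD4, the lid subunits PSMD3 and PSMD13, and PSMB1. PSMC2 (chr7:103344254-103369395) was at 116, 114 and 114 CPM in vehicle and 93.9, 99.2 and 103 CPM in Senexin B, with no overlap and a change of -0.22 ± 0.038, FDR = 4.04e-05. In all, 16 members and 21.9% of all genes were lower with no overlap. The number lower was 3 without Senexin B library 2 (8.58% of all genes) and 5 without Senexin B library 3 (8.40%). It was 4 without vehicle library 2 (9.44%) or vehicle library 3 (7.48%), and 16 with library totals only (15.8%). The number higher was 1 without vehicle library 3 (10.2% of all genes), PSMG1 and PSMG3 being lost.

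Senexin B with androgen gave 1 member higher and 5 lower (12.7% and 9.99% of all genes), with 0 past 1.5-fold (3.12% of all genes). The number lower lay near the share of all genes, and the number higher below it. Among the genes at least as abundant as PSMG4, 17.6% were higher and 13.4% lower. The 5 lower were PSMC1, PSMC2, PSMC6, PSMD1 and PSMD3, all of which were also lower without androgen. They became 11 with all 28 libraries in 1 fit (11.1% of all genes), 14 with library totals only (13.1%) and 8 without Senexin B library 2 (10.6%). The summed ATPase level was 717 ± 17 CPM in vehicle, 653 ± 6.87 CPM in Senexin B, 746 ± 12.7 CPM in R1881 and 678 ± 5.43 CPM in both (mean ± SD, n = 3).

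SNX631 without androgen gave 7 members higher and 1 lower (14.3% and 12.5% of all genes), and PSMC3IP alone passed 1.5-fold (4.76% of all genes), with 0.95 ± 0.095, FDR = 1.16e-10. The others higher were the chaperones PSMG3 (0.33) and PSMG1 (0.31 ± 0.057, FDR = 2.73e-05), the activators PSME4 (0.25 ± 0.029, FDR = 7.54e-09) and PSME3 (0.12), PSMB5 (0.11) and PSMD2 (0.09). PSME1 was the member lower (-0.21 ± 0.036, FDR = 1.59e-05). The number higher lay near the share of all genes, and the number lower below it. Among the genes at least as abundant as PSMG4, 19.5% were higher and 15.5% lower. With library totals only the counts were 5 higher and 3 lower (12.1% and 15.3% of all genes), and the number lower was 2 without SNX631 library 2 or 4 or vehicle library 3.

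SNX631 with androgen gave 8 members higher and 6 lower (17.8% and 15.4% of all genes), with PSMC3IP again alone past 1.5-fold (1.53-fold, FDR = 2.05e-09, 4.11% of all genes). The numbers higher and lower both lay near the shares of all genes. Among the genes at least as abundant as PSMG4, 24.5% were higher and 19.8% lower, which is more than among the members. The 6 lower were the ATPases PSMC1, PSMC2, PSMC4 and PSMC5 (-0.13, -0.12, -0.13 and -0.17 on the log2 scale), PSMD1 (-0.10) and the base chaperone PSMD9 (-0.20). PSMC1 was at 137, 130.2, 124 and 130.3 CPM in R1881 and 123, 117, 116 and 120.3 CPM with SNX631 added, with no overlap. In all, 7 members and 17.5% of all genes were lower with no overlap. PSMC2 was at 135, 134, 135 and 137 CPM in R1881 and 122, 122, 123 and 133 CPM with SNX631 added. The number lower was 3 without library 2 (13.9% of all genes) or library 3 (13.4%) of the combination. PSMC2, PSMD1 and PSMD9 were lost there. With library totals only the number lower was 10, where 5 were higher (18.9% and 14.7% of all genes). With no filter on low counts the number lower was 2 (6.43%).

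**Figure D5:**
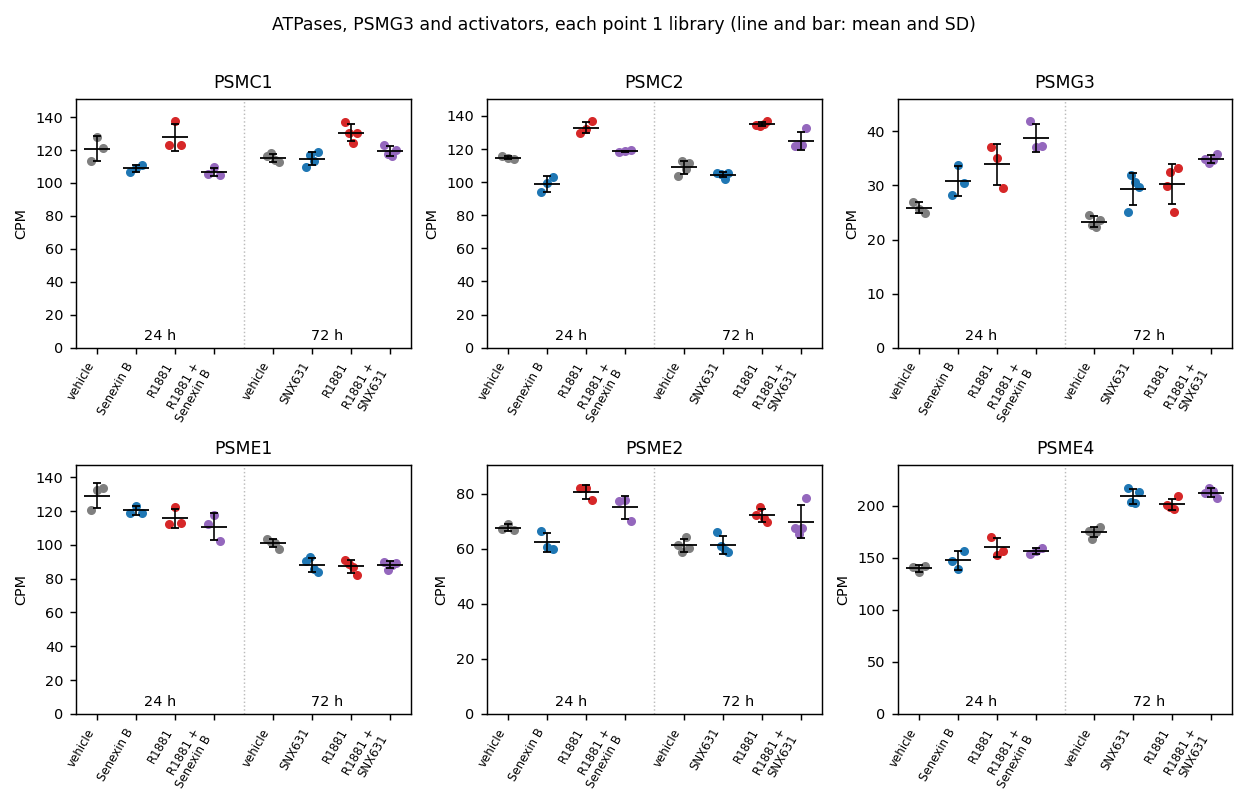
Level of 6 members in every library, in CPM on a linear axis from 0, by group. Each point is 1 library, and the black line and bar give the mean and SD: PSMC1 and PSMC2 are lower with the inhibitor added to R1881 at both times, and at 72 h PSME1 is lower and PSME4 higher in the 3 treated groups than in vehicle.

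Set side by side, with dose and time differing, PSMG1, PSMG3 and PSME3 were higher with both inhibitors without androgen, which is all 3 of those higher with Senexin B and 42.9% of those higher with SNX631, where over all genes 63.3% and 58.7% were shared. PSMC1, PSMC2 and PSMD1 were lower with both in the presence of androgen, 60% and 50% of the members lower, where over all genes 73.5% and 47.5% were shared. PSMG1 was higher in all 4 inhibitor comparisons, by 0.26 and 0.32 with Senexin B and by 0.31 and 0.39 with SNX631 on the log2 scale. The test of the difference between the inhibitor effects without androgen gave 0 members past FDR 0.01 by edgeR and 0 by DESeq2, with 18 at an unadjusted p under 0.05, where 1.44% of all genes passed upward and 0.863% downward. Of these 18, all but PSMD8 (-0.10) had a positive difference (SNX631 minus Senexin B). The shares of all genes are at FDR under 0.01. None is given at an unadjusted p under 0.05, so the 18 have nothing to be read against. The number past FDR 0.01 became 1 (PSMD1) without R1881 library 1 or 2 or combination library 1 or 2 of the 24 h experiment and 2 without Senexin B library 3. That test covers compound, dose, time and experiment at once and does not compare the compounds.

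Genes around the proteasome were counted in the same androgen comparisons, in which 26.2% of all genes passed upward and 22.1% downward at 24 h, and 27.6% and 24.6% at 72 h. Of 8 transcription factors and processing factors of the subunit genes, 6 rose and 1 fell at 24 h, and 5 rose at 72 h. NGLY1, the deglycosylase that activates NFE2L1, rose by 0.83 ± 0.048, FDR = 4.27e-16 and 0.83 ± 0.042, FDR = 1.07e-19. NFE2L1 itself did not pass at 24 h (0.05 ± 0.031, FDR = 0.145) and rose by 0.21 ± 0.026, FDR = 5.11e-09 at 72 h, and NFE2L2 rose by 0.32 ± 0.051 and 0.19 ± 0.044. The small MAF gene MAFF changed by -1.63 ± 0.338, FDR = 2.6e-05 at 24 h and did not pass at 72 h (-0.27, FDR = 0.524). NFE2L1 and NFE2L2 protein was not measured.

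Of 16 partners outside the PSM names, 6 rose and 2 fell at 24 h and 10 rose and 3 fell at 72 h, against 26.2% and 22.1% of all genes at 24 h and 27.6% and 24.6% at 72 h. UCHL5, a deubiquitinase held at the base by ADRM1, rose by 0.94 ± 0.068 and 0.64 ± 0.053. USP14, the other deubiquitinase of the base, rose by 0.36 ± 0.043 and 0.39 ± 0.031. ADRM1 passed at 72 h (0.26 ± 0.036, FDR = 4.57e-08) and not at 24 h (0.10 ± 0.042, FDR = 0.05).

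The counts that follow for complexes outside the proteasome stand against the same shares of all genes (26.2% higher and 22.1% lower at 24 h, 27.6% and 24.6% at 72 h), and several lie near them. Of 8 subunits of the CCT chaperonin, which folds actin and tubulin, 7 rose at 24 h and 6 at 72 h. Of 10 subunits of the COP9 signalosome, a relative of the lid, 2 rose and 2 fell at 24 h and 3 rose and 2 fell at 72 h, with COPS3 at 0.59 ± 0.042 and 0.46 ± 0.036. Of VCP, the segregase that feeds the proteasome, and its cofactors, 2 of 5 rose and 1 fell at 24 h and 3 rose at 72 h. Of 6 ubiquitin genes and E1 enzymes 2 rose at each time. Of 8 antioxidant genes known as NFE2L2 targets, 4 rose and 2 fell at 24 h and 4 rose and 3 fell at 72 h. Among them GCLC, the catalytic subunit of the enzyme that limits glutathione synthesis, changed by -1.24 ± 0.051 with androgen at 24 h and by -0.20 ± 0.047 at 72 h, and the difference between the experiments passed (1.04 ± 0.066, FDR = 2.24e-16). With an inhibitor alone GCLC changed by 0.87 ± 0.039 (Senexin B) and 0.68 ± 0.041 (SNX631). The cystine transporter gene SLC7A11 changed by 1.04 ± 0.062 and 0.49 ± 0.068 with androgen (difference -0.56 ± 0.104, FDR = 0.000113), and GCLM, the other subunit, by 0.43 ± 0.064 and 0.55 ± 0.053. Of the heat shock chaperones, 2 of 7 rose at 24 h and 3 of 8 at 72 h. The left-out PSMB10 did not pass (0.05 ± 0.102 and -0.07 ± 0.104).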

How the data were processed

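RNA-seq libraries of LNCaP cells (28 libraries in 8 groups) were analysed. The deposited table holds estimated counts per gene: 16.9% of the values above 0 have a fractional part, so the authors' counting split some reads. The submitters' processing notes name cutadapt 2.8, STAR 2.7.2b, Subread 2.0.3 (featureCounts) and GRCh38, while the library kit keeps strand and the strand setting of counting is not given in the sources used here. Counts were rounded, 2 rows that name no gene (0 counts) were left out, and genes were kept by filterByExpr (15963 at 24 h, 16084 at 72 h). Each experiment was fitted with edgeR 4.0.16 (quasi-likelihood, TMM, group means, R 4.3.3), with FDR under 0.01. Levels per library are CPM on TMM-scaled library sizes over all 28 libraries, means over the 28 libraries are on library totals, and intervals are 2 SE. Alternatives were DESeq2 1.42.0 (test and size factors), library totals only, all 28 libraries in 1 fit, no filter, a replicate block, FDR under 0.05, a 1.5-fold limit and each library left out. On simulated counts for androgen at 24 h (15784 genes) edgeR recovered 64.0% of genes changed by 1.25-fold and 78.0% of those changed by 1.5-fold. At 72 h (15888 genes) it recovered 56.0% and 86.0%. The changed genes were drawn from all above 1 CPM, with the same dispersion for every gene. These rates therefore do not give the recovery for the more abundant members. No pair of libraries of a group was identical or within counting noise. The design names biological replicates, but nothing says how cultures were kept apart, so p-values measure the spread between these libraries. Named genes were PSMB5, PSMB6, PSMB7, PSMD4, PSMD14, PSMC3IP, members past 1.5-fold, the 3 highest and 3 lowest past FDR in each comparison, those next to the 1 CPM limit, and from the other lists genes past 1.5-fold with NFE2L1, NFE2L2, POMP and ADRM1. Further genes were named after their values were seen. Members and lists were chosen with earlier results of these data known.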

Additional observations from a re-analysis of the deposited data

Results flagged for a closer look

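In groups of 4 libraries, the highest or lowest library was set against the others of its group for 24 named members and the summed level of 43 members (100 groups, of which chance alone flags about 1 in 20). A library stood apart in 3 groups. PSMB1 was at 150.6 CPM in SNX631 library 2, with the other 3 at 137 to 139 CPM. PSMB4 was at 218.4 CPM in library 3 of R1881 with SNX631, with the others at 227 to 228 CPM. PSMC2 was at 132.7 CPM in library 4 of R1881 with SNX631, with the others at 122.0 to 122.7 CPM. All were below the libraries of R1881 alone (134 to 137 CPM), and library 4 was nearest to them.

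The androgen effect differed with SNX631 at 72 h for PSME1 (0.22 on the log2 scale) and PSME4 (-0.17). It differed between the 72 h and the 24 h experiment for PSMC4 (0.20) and PSMC3IP (-1.09), where dose, time and experiment cannot be told apart.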

How the results depend on the processing

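No value of a named member changed direction past the test under an alternative. At 24 h same-numbered libraries correlated by -0.063 to 0.172 (median 0.025) and differently numbered ones by -0.163 to 0.078 (median -0.016). The ranges at 72 h were -0.072 to 0.040 (median 0.013) and -0.116 to 0.168 (median 0.00087). These overlapping ranges do not settle whether the replicate numbers of the labels pair the libraries. The fit with a replicate block gave 1 member for the difference of inhibitor effects, in place of 0, and moved no other count by over 1.5 times.

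With a limit of 1.5-fold added, members higher and lower were 4 and 0 (androgen, 24 h), 4 and 0 (with Senexin B), 3 and 0 (72 h), 4 and 0 (with SNX631), 0 and 0 (Senexin B without or with androgen), 1 and 0 (SNX631 without or with androgen), 0 and 0 (interaction, 72 h) and 1 (difference of androgen effects). At FDR under 0.05, the members lower were 4 (androgen with Senexin B), 14 (Senexin B), 14 with 2 higher (Senexin B with androgen), 3 (androgen with SNX631) and 3 (SNX631), the interaction at 72 h had 2 higher and 3 lower, and the differences had 5 (androgen) and 5 (inhibitors). With library totals only, members lower were 5 (androgen with Senexin B), 16 (Senexin B), 14 (Senexin B with androgen), 5 (androgen, 72 h), 6 with 14 higher (androgen with SNX631), 3 (SNX631) and 10 with 5 higher (SNX631 with androgen). All 28 libraries in 1 fit gave 11 lower (Senexin B with androgen, 11.1% of all genes), 1 lower (androgen, 72 h, 23.3%) and 0 higher (interaction, 72 h, 2.55%). No filter on low counts gave 1 lower (androgen, 72 h, 12.2% of all genes) and 2 lower (SNX631 with androgen, 6.43%). It gave 1 for the difference of inhibitor effects (0.802% of all genes higher and 0.427% lower). Without PSMC3IP the difference of androgen effects had 1. The cause of these changes was not tested. No share of all genes is given for FDR under 0.05, so the counts at that limit have nothing to be read against.

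Leaving out 1 library at a time gave, for members higher and lower, 25 to 27 and 1 to 4 (androgen, 24 h), 18 to 22 and 1 to 3 (with Senexin B), 29 to 31 and 1 to 2 (72 h), 26 to 30 and 1 (with SNX631), 1 to 4 and 3 to 9 (Senexin B), 1 and 4 to 8 (Senexin B with androgen), 6 to 7 and 1 to 2 (SNX631), 7 to 9 and 3 to 6 (SNX631 with androgen), 0 and 0 (interaction, 24 h) and 0 to 2 and 0 to 1 (interaction, 72 h). The differences had 2 to 3 (androgen) and 0 to 2 (inhibitors). Shares of all genes, higher and lower, were 0.637% to 1.04% and 0.748% to 1.36% (interaction, 24 h). The interaction at 72 h had 2.53% to 3.09% and 3.305% to 3.995%. For the differences they were 2.40% to 3.64% and 2.94% to 4.23% (androgen). They were 0.744% to 1.535% and 0.548% to 1.24% for that of the inhibitors.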
